A study of Mus musculus with 99 samples.

Results

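The ferlin family is a small group of genes for large membrane proteins with several C2 domains, which bind calcium and lipids, and a single membrane anchor at the C-terminal end. Its members were taken by name: Otof, Dysf, Myof, Fer1l4, Fer1l5 and Fer1l6, 6 of the 55291 gene symbols in the count table, and all 6 were present. Full-length cDNA had been sequenced from 99 single hair cells of the cochlea of C57BL/6 mice, picked by hand for their tdTomato fluorescence. The first group held 32 wild-type outer hair cells (OHCs) at postnatal day 30, genotype Slc26a5-CreER/+; Ai9/+, where the inducible Cre is driven by an OHC gene and Ai9 is the tdTomato reporter. The second group held 67 converted inner hair cells (cIHCs) at postnatal day 42, genotype Slc26a5-CreER/+; Rosa26Tbx2/+, which are OHCs that were made to express the transcription factor Tbx2. Both groups carry the Cre, while age, the reporter allele and the Tbx2 allele differ together between them. The mix of cells with Xist or with Y-linked reads, given below, differs between them too. The titles name no endogenous inner hair cell (IHC), whereas the protocol text shared by all samples speaks of picked endogenous IHCs and iOHCs; the titles, genotypes and markers were followed. When the Cre was induced is not given in the sources used here, and 17 further OHCs named in the design text were not analysed here. Because animals are not named in the labels, every group was treated as 1 sample, no test was made, and all spreads given are spreads between cells.

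Otoferlin, the product of Otof, acts as a calcium sensor for the fusion and replenishment of synaptic vesicles at the ribbon synapse of the IHC, and its loss causes deafness in mice and humans. Dysferlin (Dysf) is known for resealing the plasma membrane of muscle fibres, and myoferlin (Myof) for the fusion of muscle precursors and for endocytic recycling. Fer1l5 has a part in the acrosome reaction of sperm, and Fer1l4 and Fer1l6 are less studied. OHCs make few afferent synapses of their own, whereas IHCs pass nearly all of the sound signal to the auditory nerve.

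Single OHCs had 5656512 to 9287413 counts and single cIHCs 4677682 to 13792672, with medians of 6068.5 and 8546 genes with reads and of 6.68% and 3.47% of counts from mitochondrial genes; the part of these differences in the results was not tested. The labels held against markers: 9 OHC genes summed to 26807 to 73575 CPM (counts per 1000000 counts) in single OHCs and to 248 to 5374 CPM in cIHCs, and 9 IHC genes, without Otof, summed to 799 to 3906 CPM in OHCs and 3894 to 15848 CPM in cIHCs. Of other cell types, 10 supporting cell genes summed to 41 CPM over all OHCs and 22.8 CPM over all cIHCs. The 5 glia genes summed to 14.3 and 8.19 CPM, and the 8 endothelium genes to 83.2 and 56.5 CPM. The 8 fibroblast genes summed to 202.1 and 145.5 CPM, mostly Pdgfra, with reads in over 90% of the cells of both groups. Single cells reached higher sums. The highest supporting sum was 967.6 CPM in an OHC and 899.2 CPM in a cIHC, with medians of 0 over cells. For glia the highest sums were 174.1 and 118.9 CPM, with medians of 0. For endothelium the highest sums were 274.99 and 250.6 CPM. For fibroblasts they were 1413 and 630.2 CPM, with medians of 109.8 and 108.6 CPM. The part of such cells in the results was not tested. The 8 blood and macrophage genes summed to 3.40 CPM in OHCs (0 to 67.0 over cells) and 52.3 CPM in cIHCs (0 to 336.9), with C1qb at 48.2 CPM in cIHCs and C1qa and Cx3cr1 at 0 in both groups; their part in the results was not tested.

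Otof was the ferlin of these cells. It gave 131380 of 133533 ferlin counts in OHCs, or 98.4%, and 1608284 of 1612388 in cIHCs, or 99.7%. Every one of the 99 cells had Otof reads, whereas reads of any other ferlin came from 5 OHCs and 19 cIHCs. Scaled by exon length, Otof stood 49.6 times above Fer1l5, the next ferlin, in OHCs and 382.2 times above it in cIHCs. The gene lies on the minus strand of chromosome 5, from 30367062 to 30461932 in build mm10, with 48 merged exons that span 7904 bases and share no base with an exon of another gene in the GENCODE M21 annotation.

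In OHCs the lowest, median and highest Otof levels were 0.142, 493 and 1550 CPM, and in cIHCs they were 299, 2842 and 6075 CPM. Most cIHCs stood above all OHCs, but the ranges overlapped: 61 of 67 cIHCs lay above the highest OHC. Of the 32 OHCs, 10 lay below the lowest cIHC and 22 at or above it. How many of all genes overlap as little was computed only for pairs of cells, given below. Above 1000 CPM there were 64 cIHCs and 3 OHCs. Pooled over cells, Otof stood at 542.8 CPM in OHCs (95% exact Poisson interval 539.8 to 545.7) and 2956 CPM in cIHCs (2952 to 2961), a ratio of 5.45-fold and a log2 ratio of cIHC over OHC of 2.45 (2.44 to 2.45, exact conditional binomial). These intervals, and those of levels and ratios below, treat each read as a separate count and leave out the spread between cells. The reads carry no molecular identifiers and several can come from 1 molecule, so the intervals can be too narrow even for counting error. The cIHC was the higher cell in 97.0% of 2144 pairs of 1 cIHC and 1 OHC.

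Many genes differed by 2-fold or more between the groups. Of the 16005 genes that reached 1 CPM in either group, 34% were higher in cIHCs by 2-fold or more and 19.7% were lower, with a median log2 ratio of 0.31. The cIHC was higher in as large a share of pairs as for Otof in 0.269% of them, a set that holds many genes read in few cells, and in 0.753%, or 4 with Otof among them, of the 531 genes that had reads in every cell and reached 50 CPM in either group. Among 4839 genes that reached 50 CPM in either group, 5.93% had a higher log2 ratio than Otof. By level per length, Otof moved from rank 774 of 19351 genes with reads in OHCs to rank 99 of 23679 in cIHCs.

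**Figure D1:**
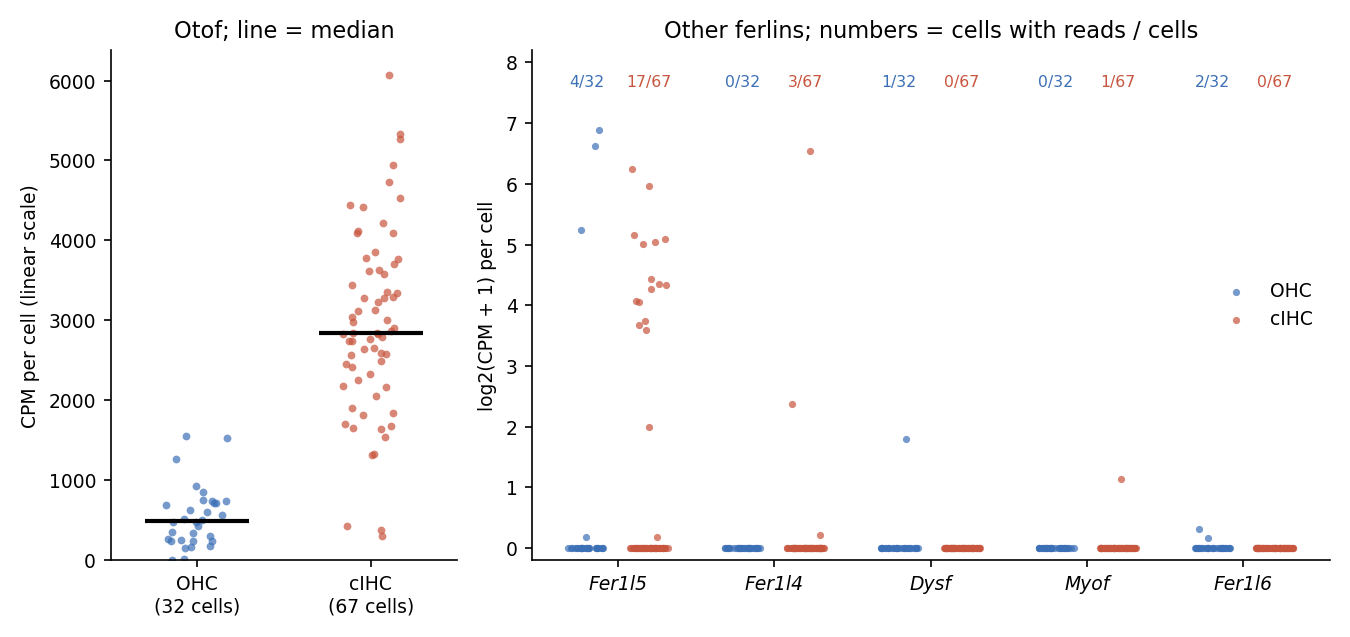
Ferlin levels in single cells. Left: Otof in CPM (linear axis) in 32 OHCs and 67 cIHCs, 1 point per cell, with the median of 493 and 2842 CPM as a line. Right: the other 5 ferlins as log2(CPM + 1), with the number of cells with reads above each column; nearly all cells lie at 0, and Fer1l5 has the most cells with reads, 4 of 32 and 17 of 67.

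The spread of Otof between cells was wide in OHCs and narrower in cIHCs. Its mean over cells was 545 ± 384 CPM (SD over 32 cells) in OHCs, with quartiles of 249 and 725 CPM, and 2951 ± 1151 CPM (SD over 67 cells) in cIHCs, with quartiles of 2291 and 3624 CPM. The coefficient of variation was 70.5% in OHCs, above that of 89.6% of 230 genes of like level (within 0.5 on the log2 scale of pooled CPM), whose median was 53.5%. In cIHCs it was 39%, beside a median of 37.7% over 18 genes of like level.

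A few cells stood apart in each group. The OHC numbered 32 held a single Otof read among 7045481 counts, and the OHC numbered 17 held 107 reads, or 16.3 CPM, while the next lowest OHC had 156 CPM. Both were otherwise OHCs: they had 42610 and 35417 CPM of Ocm, the gene of the OHC calcium buffer oncomodulin, 994 and 2913 CPM of Slc26a5, the gene of the OHC motor protein prestin, and 558 and 294 CPM of Myo7a, a motor of the hair bundle. They also had 4769 and 5363 genes with reads, below the OHC median of 6068.5. The 3 lowest cIHCs, at 299, 380 and 431 CPM, overlapped the OHC range. They had 1173, 1374 and 419 CPM of Slc17a8, the gene of the vesicular glutamate transporter of IHCs, and 2024, 725 and 129 CPM of Tbx2. The 419 CPM of Slc17a8 lay within the OHC range, as the OHC numbered 22 had 594 CPM. These 3 cIHCs had 9258, 9223 and 10859 genes with reads, above the cIHC median of 8546. Their mitochondrial shares were 0.287%, 3.09% and 7.94%, beside a median of 3.47%.

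Cells could be told apart by reads of Xist or of Y-linked genes at 10 CPM or more, and the groups differed in this: 4 OHCs and 55 cIHCs had Xist reads, while 24 OHCs and 12 cIHCs had Y-linked reads. Otof was higher in cIHCs within both sets. Among cells with Xist reads the pooled levels were 749.1 CPM in the 4 OHCs, which lay between 480 and 1533 CPM, and 3050 CPM in the 55 cIHCs, for a log2 ratio of 2.03 (2.01 to 2.04). Among cells with Y-linked reads they were 523.2 CPM and 2420 CPM, a log2 ratio of 2.21 (2.198 to 2.221). Both log2 ratios lay below the 2.45 of all cells.

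Fer1l5 was the second ferlin in both groups and had reads in a minority of cells. Its pooled level was 8.80 CPM in OHCs (8.43 to 9.18) and 6.22 CPM in cIHCs (6.01 to 6.43), a log2 ratio of -0.50 (-0.58 to -0.42), within 2-fold. Reads came from 4 of 32 OHCs, 12.5% (exact Clopper-Pearson 95% interval 3.51 to 28.99), and from 17 of 67 cIHCs, 25.4% (15.5 to 37.5), so the cIHCs had the lower pooled level but the larger share of cells with reads. Intervals of a share of cells cover the number of cells counted; the cells of a group may share animals, which these intervals leave out. The 4 OHCs held 1, 250, 821 and 1057 counts, and the 17 cIHCs held 1 to 754. The highest OHC, at 116.8 CPM, thus held 49.6% of the counts of its group, and the highest cIHC, at 74.8 CPM, held 22.3%. With the highest cell of each group left out, the log2 ratio was 0.10, so its direction rests on those cells.

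The share of cells with Fer1l5 reads has to be read beside genes of the same level. Among 1768 genes within 0.5 of Fer1l5 on the log2 scale in OHCs the median share was 18.8% of cells, and 20.7% of these genes had reads in fewer cells than Fer1l5. Among 1585 such genes in cIHCs the median share was 23.9%, and 53.8% had reads in fewer cells. After thinning every cell to the same 5770000 reads, which left 29 OHCs and 66 cIHCs, the shares for Fer1l5 were 13.8% and 25.8%. At 10 CPM or more they were 9.38% and 22.4%. All 4 OHCs with Fer1l5 reads had Y-linked reads, as did 24 of all 32 OHCs, and the only 4 OHCs with Xist reads held none. In cIHCs the 55 of 67 cells with Xist reads held 2649 of the 3384 Fer1l5 counts. A link of Fer1l5 with Xist or Y-linked reads was not tested. In cells with Y-linked reads the log2 ratio was -0.36 (-0.48 to -0.24). Fer1l5, on the plus strand of chromosome 1 from 36372291 to 36422110, shares 103 of its 6356 exon bases, or 1.62%, with Lman2l on the other strand, at 85.2 and 80.1 CPM, and no strand setting is given in the sources used here.

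Fer1l4 reads appeared only among cIHCs, in 3 of 67 cells or 4.48% (0.933 to 12.5). The 3 cells held 1, 34 and 677 counts, so that 1 cell, at 92.0 CPM, held 95.1% of the 712 counts. The pooled level was 1.31 CPM (1.21 to 1.41), and with no read in OHCs it was at least 106-fold higher in cIHCs against a floor of 3 counts over the OHC group, a log2 ratio of at least 6.72. Without the highest cell that bound fell to 2.34. With 0 of 32 OHCs, the limit set by a floor of 3 cells is 9.38%, and the exact interval ends at 10.9%.

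The muscle ferlins gave few reads. Dysf had 21 counts in OHCs, all from 1 cell at 2.49 CPM, and none in cIHCs, where the floor of 3 cells is 4.48% and the exact interval ends at 5.36%. Against the floor in counts it was at least 15.7-fold lower in cIHCs, a log2 ratio of at most -3.98, which has no value without its 1 cell. In the cells with Y-linked reads that ratio was at most -1.63. Myof had 8 counts in all, from 1 cIHC at 1.20 CPM, and none in OHCs, a level at least 1.19-fold higher in cIHCs against the floor, with a counting interval that includes equal levels. Fer1l6 had 3 counts in OHCs, from 2 cells, and none in cIHCs, too few for a ratio. In single cells the few reads coincided at times: the OHC numbered 9 held all of the Dysf reads, 1 of the 3 Fer1l6 counts and 821 Fer1l5 counts, with 243.1 CPM of Otof and 215.2 CPM over the endothelium genes. That sum was Egfl7 alone, at 215.2 CPM, a gene with reads in 68.8% of OHCs, while Cdh5, Kdr and Tek were at 0 in all OHCs.

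Per exon length Otof was also the most abundant of 46 C2-domain genes, when 40 other genes with C2 domains (synaptotagmins, extended synaptotagmins, copines, Doc2 and related genes) were set beside the 6 ferlins. In OHCs its level per length was 133.2 counts per kilobase, scaled to 1000000 over all genes, 4.2 times that of the copine Cpne9 and 10.8 times that of Sytl1, a synaptotagmin-like gene, which came next. In cIHCs it was 917.1, 10.0 times that of Syt14, the next gene, and 41.2 times that of Syt11. Fer1l5 held rank 8 in OHCs and rank 14 in cIHCs in this order.

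**Figure D2:**
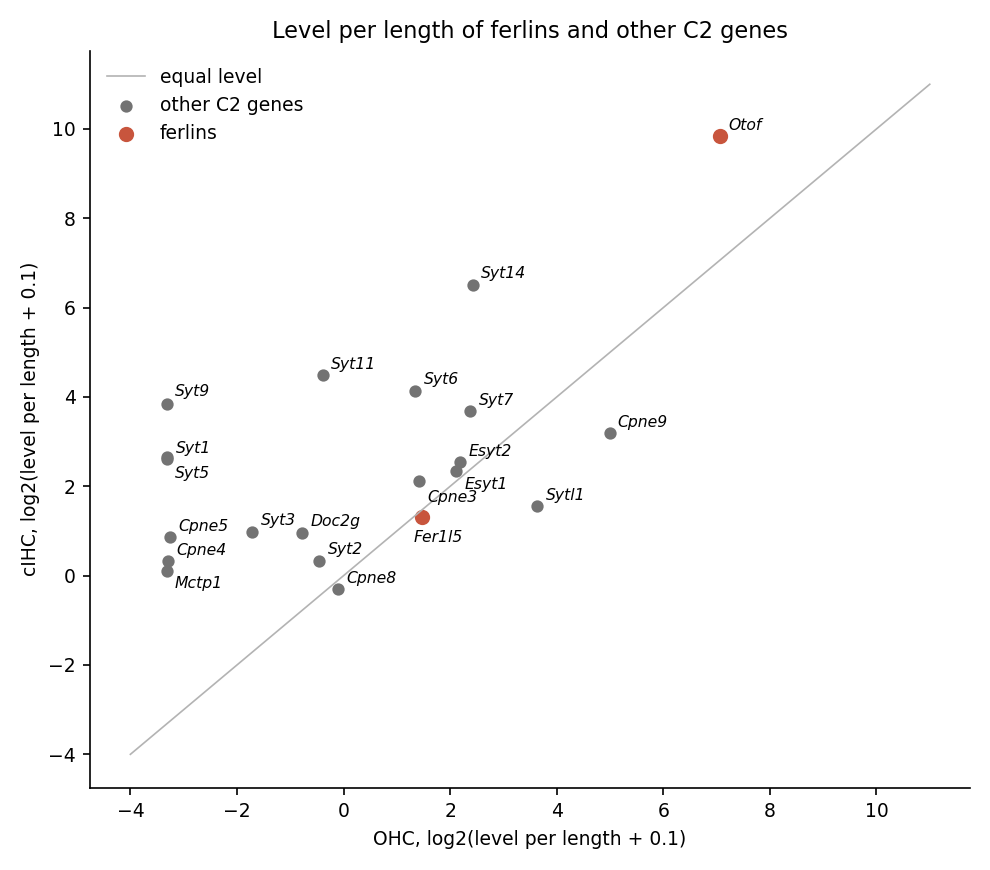
Levels of ferlins and other C2-domain genes in OHCs (horizontal) and cIHCs (vertical), as log2 of pooled counts per kilobase of exon, scaled to 1000000 over all genes, plus 0.1. Each point is a gene with at least 0.5 in 1 or both groups and the line marks equal levels; Otof lies above every other gene on both axes, at 133.2 and 917.1.

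The other C2-domain genes were sparse, with 21 of 40 reaching 1 CPM in 1 or both groups. Of these 21, 12 or 57.1% were higher by 2-fold in cIHCs, beside 34% of all genes, and 3 or 14.3% were lower, beside 19.7%; their median log2 ratio was 2.51, beside 0.31. None of them had a median CPM above 0 over the cells of both groups, so medians over cells gave 0 higher and 0 lower. At 10 CPM or more 5 of 11 were higher and 2 lower, where 26.3% and 14.3% of all genes were. Syt14, a synaptotagmin thought to act without calcium, went from 32.4 to 444.2 CPM, a log2 ratio of 3.78, with reads in 37.5% of OHCs and all cIHCs. Syt11 went from 1.78 to 47.3 CPM, a log2 ratio of 4.73, with 98.8% of the OHC counts in 1 cell. Syt1, the fast calcium sensor of release in the brain, had a single OHC count and reached 21.1 CPM in cIHCs, for a log2 ratio of 12.32 (9.84 to 17.63), but reads in 35.8% of cIHCs. Syt9 had no OHC read and reached 23 CPM in cIHCs, a log2 ratio of at least 10.86, with reads in 38.8% of cells. The 3 lower genes were Sytl1 at -2.46, Cpne9 at -2.15 and Syt15, named after its values were seen, at -1.38. In 1 cell each lay 75.7% of the cIHC counts of Sytl1 and 91.8% of the OHC counts of Syt15. Esyt1 and Esyt2, tethers between the endoplasmic reticulum and the plasma membrane, had log2 ratios of -0.10 and 0.03, and that of Esyt2 turned to -0.16 with TMM factors and to -0.17 with median-of-ratios scaling.

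A list of 28 otoferlin partners held genes reported to bind otoferlin or to act with it in vesicle fusion, in endocytosis and in the insertion of tail-anchored proteins. Of these, 6 or 21.4% were higher by 2-fold and 3 or 10.7% were lower, both under the shares of all genes, and 19 were within 2-fold, with a median log2 ratio of 0.24. Among cells with Xist reads 10 or 35.7% were higher, beside 55% of all genes. Among the highest, Cabp2, a calcium-binding regulator of the hair cell calcium channel, went from 1018 to 2643 CPM, a log2 ratio of 1.38. Sh3gl2, which encodes an endophilin of vesicle recycling, went from 4.02 to 82.6 CPM, a log2 ratio of 4.36, where 1 cell held 75.8% of the OHC counts. Cabp1 had a single OHC count and reached 13.4 CPM in cIHCs, for a log2 ratio of 11.66 (9.18 to 16.96), and Stx1a, a syntaxin of the fusion complex, had none and 12.4 CPM, a log2 ratio of at least 9.97, in 29.9% of cIHCs.

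The 3 lower partners were Ap2a2, a subunit of the clathrin adaptor, from 214.4 to 43.4 CPM, Sh3gl1, another endophilin, from 250.3 to 66.1 CPM, and Cacna1d, the pore of the calcium channel that triggers release, from 706.0 to 310.5 CPM, with log2 ratios of -2.31, -1.92 and -1.18. Ergic2, a cargo receptor between endoplasmic reticulum and Golgi, followed at -0.53. Get1, Caml, Asna1, Get4, Ubl4a, Bag6 and Sgta, which serve the insertion of tail-anchored proteins, were all within 2-fold, from -0.42 to 0.85. Myo6, a motor reported to bind otoferlin, had 1538 and 1117 CPM, a log2 ratio of -0.46.

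The ribbon synapse list tilted upward over all cells. Of 21 measured genes of 24, 14 or 66.7% were higher by 2-fold, beside 34% of all genes. In this list 1 gene was lower, and the median log2 ratio was 1.23. With TMM factors 12 or 57.1% were higher, beside 30.4% of all genes. Among cells with Xist reads 12 or 57.1% were higher, close to the 55% of all genes there. Among cells with Y-linked reads 11 or 52.4% were higher, beside 33.6%. Rims2, an active zone scaffold, went from 4.09 to 137.5 CPM, a log2 ratio of 5.07, and Cacna2d2, a calcium channel subunit, went from 0.401 to 12.5 CPM, a ratio of 4.96; single cells held 96.4% and 88.7% of their OHC counts. Sv2b, a synaptic vesicle protein, had no OHC read and reached 26.8 CPM in cIHCs, a ratio of at least 11.08. Unc13b, a vesicle priming gene, had 2 OHC counts and reached 10.4 CPM in cIHCs, for a ratio of 10.29 (8.44 to 13.34), with reads in 25.4% of cIHCs. The lowest ratios were those of Rab3ip at -1.26, Tbc1d24 at -0.56, Unc13a at -0.46 and Rab3a at -0.15. Per exon length, Otof stood 4.68 times above Slc17a8 in OHCs and 1.5 times above it in cIHCs. Other genes of this list stood above Otof in OHCs, where its level was 0.34, 0.43 and 0.72 times that of Rab3ip, Rab3a and Rogdi. In cIHCs it was 4.42, 2.60 and 1.67 times theirs. Of the otoferlin partners, Cabp2 stood above Otof in both groups.

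The membrane repair list, which holds annexins, calpains and caveolar genes tied to dysferlin and myoferlin, had 17 of 28 genes at 1 CPM or more. Of these, 5 or 29.4% were higher by 2-fold and 3 or 17.6% lower, close to the shares of all genes, with a median log2 ratio of 0.81, beside 0.31 for all genes. The higher genes were Capn2, a calpain subunit, at 1.89, Ahnak at 1.87, Anxa2 at 1.84, Cavin1 at 1.68 and Ehd1 at 1.05, and the last fell under 2-fold with TMM, at 0.86. Among the lower ones, Anxa6, an annexin, went from 230.1 to 100.6 CPM, a ratio of -1.19. Cav1, which encodes caveolin, had 8.75 CPM in OHCs and 1 count in cIHCs, a ratio of -12.22 (-17.52 to -9.74), and Cav2 had a ratio of -1.21; all OHC counts of both genes lay in 1 cell each. Of the counts of Anxa2, 1 cell held 96.8% in OHCs and 94.6% in cIHCs. Anxa2, Cav1 and Cav2 were named after their values were seen. Chmp4b, Capns1 and Pdcd6ip were within 2-fold, at -0.55, -0.34 and 0.19, and the last fell below 0 under both other scalings, to -0.01 under median-of-ratios scaling.

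**Figure D3:**
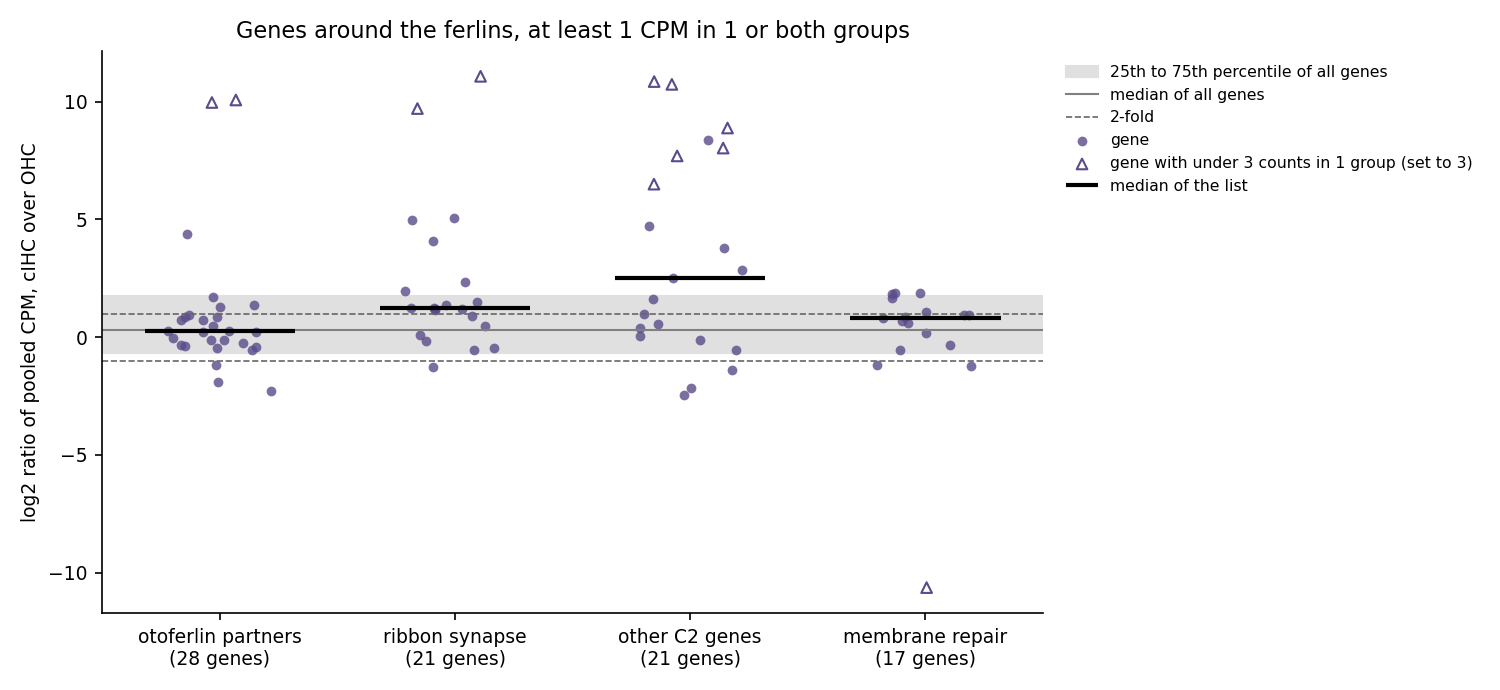
Log2 ratios of pooled CPM, cIHC over OHC, for genes of the 4 lists that reached 1 CPM in either group, 1 point per gene (triangles: under 3 counts in a group, set to 3), with list medians as black lines. The grey band runs from the 25th to the 75th percentile of all 16005 genes (-0.66 to 1.74) and the grey line is their median of 0.31. The ribbon synapse, C2 and membrane repair lists lie above that median at 1.23, 2.51 and 0.81, and the otoferlin partners lie below it at 0.24.

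Within a group, the genes whose levels ran most like Otof over cells were sought among those with reads in 75% or more of the cells and a mean of 50 CPM or more. These Spearman correlations of log2(CPM + 1) are descriptions: cells of a group may share animals and preparation, and each cell is scaled to its total. In the 67 cIHCs, 4 of the 5 most alike of 3938 genes were Snrnp25, a minor spliceosome protein gene (rho 0.71), Myo6 (0.69), Espn, which encodes an actin bundler of stereocilia (0.68), and Capg, an actin capping gene (0.67). The 5th to 95th percentile over all 3938 genes was -0.32 to 0.34. Leaving out the 2 cells farthest from the median of Otof, an alternative chosen after seeing the data, gave 0.69, 0.67, 0.66 and 0.64 for these genes. Other alternatives kept fewer: of the 5 genes, 1 stayed in the first 5 with Pearson's correlation and 3 within the 55 cells with Xist reads. The 3 cIHCs lowest in Otof had 49.3, 129 and 164 CPM of Myo6, where the median was 955 CPM, and 308, 0 and 205 CPM of Espn, where the median was 569.9 CPM.

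In the 32 OHCs the 5 most alike of 2345 genes were Lrrk1, a kinase gene (0.60), Tmbim4 (0.58), Gm30191 (0.58), Rpl12, a ribosomal protein gene (0.57), and Slc29a1, a nucleoside transporter gene (0.57), beside a 5th to 95th percentile of -0.31 to 0.33. None of these genes was among the 5 of the cIHCs, and in OHCs the rho of Otof was 0.17 with Myo6 and -0.34 with Espn. Only 2 of these 5 genes stayed in the first 5 without the 2 farthest cells, and none with Pearson's correlation.

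Among cIHCs, the rho of Otof was -0.37 with Tbx2, 0.00 with Slc17a8, 0.21 with Ocm and -0.04 with Slc26a5. With total counts it was -0.06 and with the number of genes with reads -0.31. In OHCs the rho with Slc17a8 was 0.46, where 59.4% of OHCs had Slc17a8 reads, -0.29 with Ocm and -0.13 with Slc26a5; with total counts it was -0.05 and with genes with reads 0.25.

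**Figure D4:**
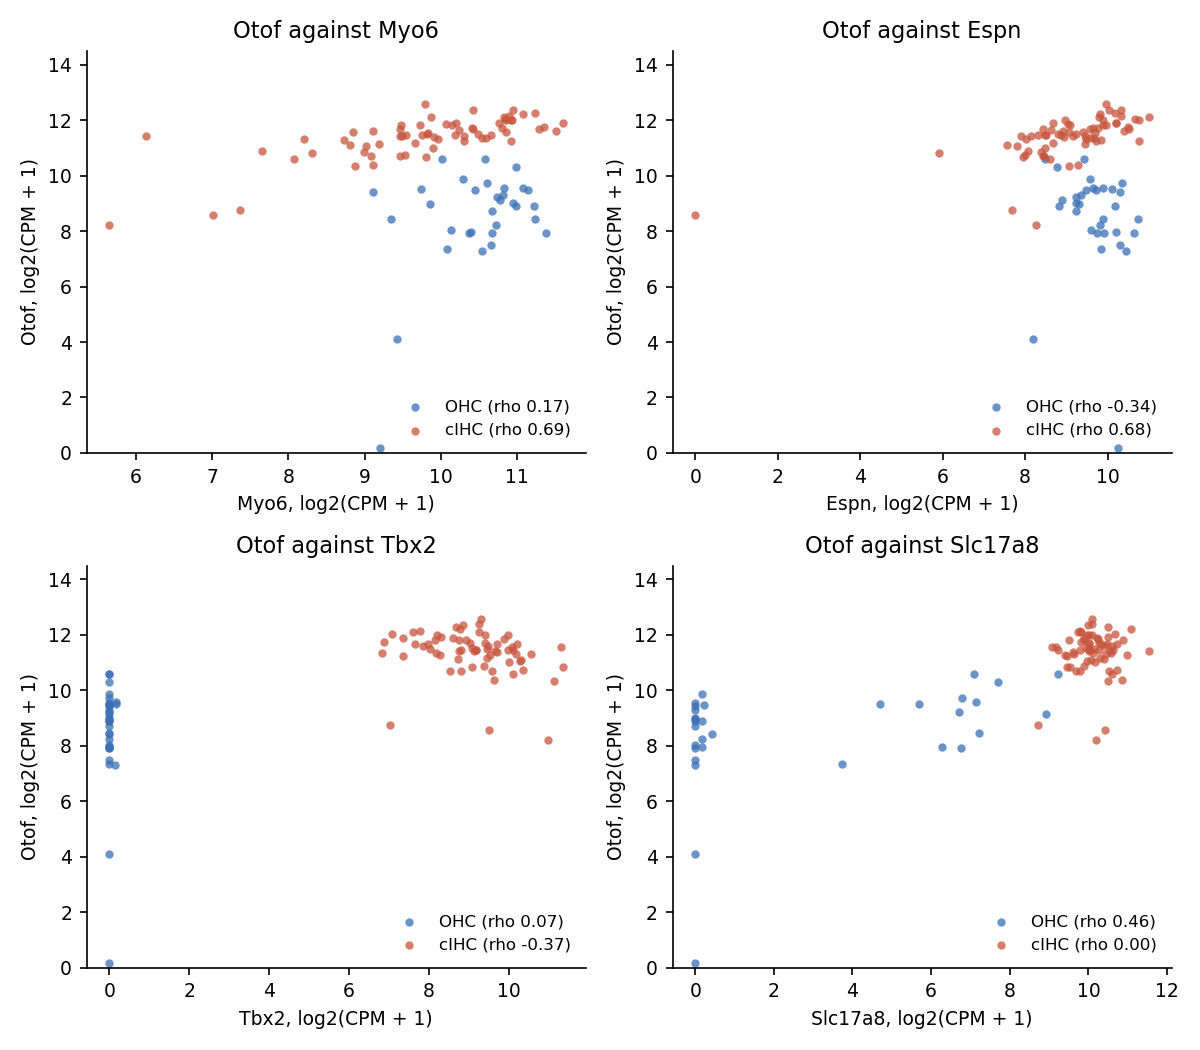
Otof against Myo6, Espn, Tbx2 and Slc17a8 in single cells, all as log2(CPM + 1), 1 point per cell, with OHCs in blue and cIHCs in red and Spearman's rho in each key. In cIHCs Otof runs with Myo6 (rho 0.69) and Espn (0.68) while rho is -0.37 with Tbx2 and 0.00 with Slc17a8, and the 3 cIHCs lowest in Otof also lie under the medians of Myo6 and Espn.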

How the data were processed

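The deposited values are raw counts, 1 whole number per gene symbol and cell, judged to be unnormalised from the table itself. Per the submitters' processing notes, HISAT2 2.2.1, StringTie 2.2.1 and featureCounts 2.0.1 were used with build mm10; annotation and strand setting are not given in the sources used here. All 99 cells were assigned by title and used; 0 columns belong to no sample and 0 pairs of cells were identical. Cells were summed to 1 sample per group and divided by the group's total (CPM); a log2 ratio is always that of cIHCs to OHCs. Sums of 0 were set to 3 counts and the ratio given as a bound; sums of 1 or 2 entered medians at 3. A bound on the wrong side of 0 gave no value. Levels per length used merged exons of GENCODE M21, which holds 96.4% of the symbols. Of 47 named genes, exons of 18 overlap another gene there, over 10% of exon bases in 2 of them (Capn2 and Ergic2), so these counts are uncertain. Outside these 47, the text also names Cib2, with 15.8% of its exon bases shared with Sh2d7. Get1, under its older symbol Wrb, shares 11.6% with AC164647.1, and Egfl7 shares 7.37% with Gm20532 and further bases with other genes. Named genes are the 6 ferlins, the 4 highest and 4 lowest ratios of each list at 10 CPM or more, and the 5 genes most like Otof in each group, 1 of which is not reported here. The members and lists were chosen with earlier results of these data known. TMM factors (edgeR 4.0.16, R 4.3.3) were 0.936 and 1.07; all else used Python 3.11.15 with matplotlib 3.10.9, scipy 1.17.1, numpy 2.4.6 and pandas 2.3.3. The ratio and correlation steps were tested on simulated data. For ratios these held only genes at 10 CPM or more, so ratios of genes under that level or with reads in few cells were not covered.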

Additional observations from a re-analysis of the deposited data

How the results depend on the processing

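Otof stayed higher in cIHCs under all 10 alternatives, with a log2 ratio from 2.03 to 2.53 beside 2.45. It was 2.44 with the mean and 2.53 with the median of CPM per cell, 2.51 without the highest cell, 2.25 under TMM, 2.24 under median-of-ratios scaling, 2.40 with totals without mitochondrial genes, 2.43 after thinning, 2.37 when the most abundant genes were left out, 2.03 in cells with Xist reads and 2.21 in those with Y-linked reads. TMM and median-of-ratios scaling moved all genes by -0.19 and -0.20. Fer1l5 turned to 0.10 without the highest cells and to at least 5.78 among cells with Xist reads, where its 4 OHCs held no read. Of the ferlins, medians over cells gave a value only for Otof; Dysf and Myof had none without the highest cell, Dysf, Myof and Fer1l4 none in cells with Xist reads, and Myof none in those with Y-linked reads.

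Counts of list genes moved by over 1.5 times as follows. With the median of CPM per cell, 8 of 10 ribbon synapse genes were higher and 1 of 7 membrane repair genes lower, beside 44.7% and 9.89% of all genes; 0 other C2 genes had a value, hence 0 higher and 0 lower. Without the highest cells 1 of 14 membrane repair genes was lower, beside 13.0% of all genes. Among cells with Xist reads 10 of 28 otoferlin partners and 9 of 17 membrane repair genes were higher, beside 55% of all genes, and 2 of 21 ribbon synapse genes lower, beside 17.2%. Among cells with Y-linked reads 2 of 21 ribbon synapse genes and 5 of 20 other C2 genes were lower, beside 26.7%. From 10 CPM, 5 of 11 other C2 genes were higher, beside 26.3%, and 1 of 13 membrane repair genes lower, beside 14.3%. With a minimum of only more than 3 counts in a group, 19 of 28 other C2 genes and 12 of 25 membrane repair genes were higher, beside 42.7%. Of the 5 genes most like Otof, 0 were shared with Pearson's correlation in OHCs and 1 in cIHCs, 1 and 3 within the larger set by Xist or Y-linked reads, and 2 in OHCs without the 2 farthest cells, an alternative chosen after seeing the data, which kept all 5 in cIHCs.

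No paired analysis was possible because a number in a title is only a running number of cells, with no animal behind it, and no test was made. At these depths 1 read in a median cell is 0.134 CPM in OHCs and 0.129 CPM in cIHCs, so a ferlin without reads can still be present below that.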

Other observations

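Genes of both kinds of hair cell were set beside Otof over cells, as a description with no test. In the 67 cIHCs the Spearman correlation with Otof was 0.50 for Tmc1, a mechanotransduction channel gene, 0.50 for Lhfpl5, its accessory gene, 0.49 for Gfi1 and 0.42 for Pou4f3, both transcription factors, 0.38 for Rbm24, 0.35 for Myo7a, 0.22 for Loxhd1, 0.14 for Cib2 and 0.03 for Ptprq, beside 0.69 for Myo6. In the 32 OHCs these 10 genes, in the same order, had -0.10, -0.22, -0.17, -0.09, -0.11, 0.20, -0.17, -0.25, 0.17 and 0.17. Calb2 and Cabp2, which encode calcium-binding proteins, had 0.60 and 0.52 in cIHCs and -0.12 and -0.07 in OHCs. The lowest of the 3938 values in cIHCs was that of Gapdh, a gene of glycolysis, at -0.70, or -0.67 without the 2 cells farthest from the median of Otof, while its value in OHCs was 0.19. The 3 cIHCs lowest in Otof had 4164, 3783 and 4368 CPM of Gapdh, and the 2 highest had 1219 and 1130 CPM. Gapdh was named after its value was seen.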
